A study of Homo sapiens with 4 samples.

Results

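Secreted and cell-surface protease inhibitors, together with the urokinase plasminogen activator and its receptor, were followed in LS180, an established line of human colon carcinoma cells. The 9 genes were chosen by name, as inhibitors and activators of extracellular proteolysis: SPINT1, SPINT2, SLPI, SERPINA1, CST3, TIMP1, TIMP2, PLAU and PLAUR. The array annotation assigned 11 of 12626 probe sets to them, 1 each to 7 genes and 2 each to TIMP2 and PLAUR. A gene was analysed when its signal reached a log2 value of 5 on at least 1 array, and 7 of the 9 genes did, among 3588 of 8225 genes on the array.

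The cells carried a Tet-off system, in which removal of doxycycline switches on RBM35A, an older name of ESRP1, an epithelial RNA-binding protein that regulates splicing. RBM35A+ cells had grown without doxycycline for 6 days or longer, and RBM35A- cells, described as parental, stayed in doxycycline; whether the parental cells held the RBM35A construct is not stated. Total RNA and polysomal RNA, which is RNA loaded with several ribosomes, were each measured in both states on Affymetrix HG-U95Av2 arrays, giving 4 groups of 1 array. The study addressed how RBM35A expression changes total and polysomal mRNA. RBM35A state changed together with doxycycline, and RNA fraction changed together with the way the RNA was extracted, so these cannot be told apart.

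Proteases outside the cell cut matrix, growth factor precursors and receptors, and each class is held in check by its own inhibitors. Kunitz-type inhibitors of epithelial cells block membrane-bound serine proteases, serpins and SLPI block neutrophil serine proteases, cystatins block cysteine cathepsins, and TIMPs block matrix metalloproteinases. Urokinase, bound to its receptor, turns plasminogen into plasmin, a broad protease used by migrating cells. In the colon these systems take part in the upkeep of the epithelial barrier and, in carcinoma, in invasion.

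No group had a second array, so no difference between single arrays has a p-value. Error was gauged by how far probe sets of one gene disagreed, over 339 genes with at least 2 probe sets at or over 5 on all 4 arrays, and is given as the SD of the log2 difference that 1 probe set reads. It was 0.188 for the RBM35A difference in total RNA, 0.195 in polysomal RNA and 0.239 for the difference between these differences. For polysomal minus total RNA it was 0.697 in RBM35A- and 0.784 in RBM35A+ cells. This SD covers probes, not cultures. Differences are RBM35A+ minus RBM35A- on the log2 scale unless stated, values under 5 were raised to 5 before a difference was taken, and levels of different genes are not ranked because their probes differ in affinity. In bulk RNA, fewer expressing cells and less RNA per cell cannot be told apart.

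The labelled cell type was compared with its markers. Of 12 colon epithelial markers 11 were analysed, with KRT8 at 13.21 to 13.86 and EPCAM at 10.28 to 10.62, while KRT20 lay under 5. Of 9 hepatocyte markers on the array, a cell type that makes SERPINA1 in bulk, 0 reached 5, and ALB and APOA1 were among those below. Of 9 fibroblast and endothelial markers only COL1A1 reached 5, in polysomal RNA, and of 9 haematopoietic markers only HBB did.

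SLPI was the member with the largest RBM35A difference and the only one past 1.5-fold, and it did so in polysomal RNA. In the other 6 analysed members the RBM35A difference was at most 0.26 in size in total RNA. In polysomal RNA it was at most 0.15 in the 5 of these with a value over the floor. CST3 and SERPINA1 read lower in polysomal than in total RNA in both states, and SLPI read higher. PLAU and TIMP2 gave no signal over 5 on any array.

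**Figure D1:**
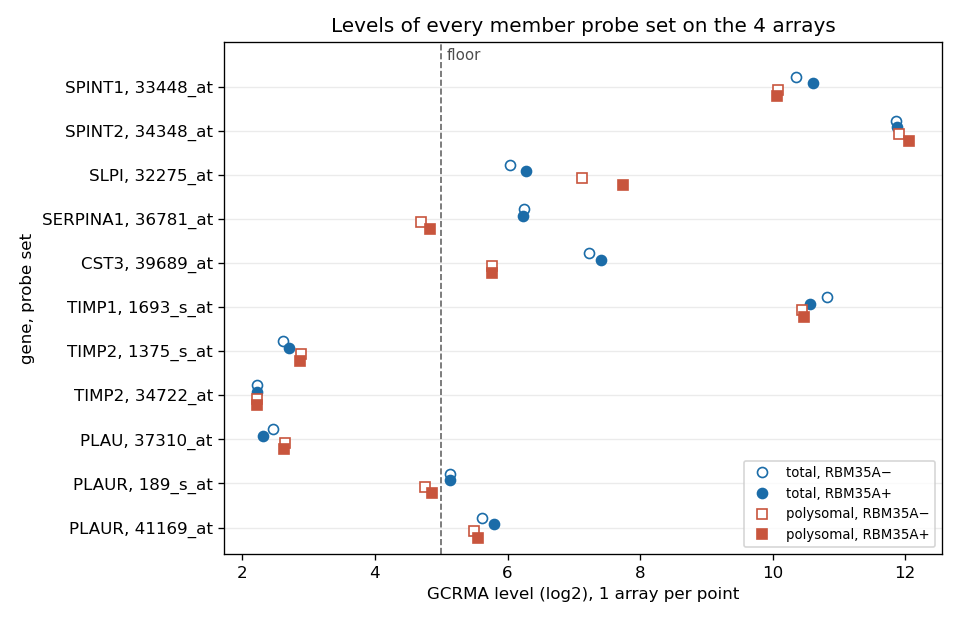
Log2 GCRMA level (x axis) of each of the 11 member probe sets (y axis, gene and probe set) on the 4 arrays; circles are total RNA, squares polysomal RNA, open symbols RBM35A-, filled symbols RBM35A+, and the dashed line marks the floor of 5. SLPI lies to the right in polysomal RNA, CST3 and SERPINA1 to the left, and both TIMP2 probe sets and PLAU lie left of the floor on all arrays.

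SPINT1, or HAI-1, is a membrane-bound Kunitz inhibitor of matriptase and of the activator of hepatocyte growth factor. Its level was 10.35 in total RNA of RBM35A- cells and 10.61 in RBM35A+ cells, and 10.08 and 10.07 in polysomal RNA of the same states. Total RNA was thus higher in RBM35A+ cells by 0.26 (1.20-fold, 1.41 times the SD of 1 probe set), and polysomal RNA differed by −0.01. The total RNA array of RBM35A+ cells was the highest of the 4, and the polysomal arrays were the lowest. SPINT2, or HAI-2, the related Kunitz inhibitor that also acts on prostasin, read 11.85 and 11.88 in total RNA and 11.91 and 12.06 in polysomal RNA. Its RBM35A differences of 0.03 and 0.15 were both smaller than the SD of 1 probe set. Over the 4 arrays SPINT2 varied by 0.208, the narrowest range of the analysed members.

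Of the proteases that SPINT1 and SPINT2 inhibit, matriptase and prostasin gave a measured value, while the activator of hepatocyte growth factor (HGFAC) and hepsin (HPN) lay under 5 on all arrays. Matriptase (ST14) read 10.20 and 9.86 in total RNA, a difference of −0.34, and 11.38 and 11.33 in polysomal RNA, a difference of −0.04. Prostasin (PRSS8) read 7.90 and 7.35 in total RNA (−0.55) and 8.26 and 8.06 in polysomal RNA (−0.21). On the same pair of total RNA arrays SPINT1 was higher and both proteases were lower in RBM35A+ cells. The log2 ratio of SPINT1 to ST14 therefore differed by 0.60 between the states in total RNA and by 0.03 in polysomal RNA, and that of SPINT1 to PRSS8 by 0.82 and 0.19. For SPINT2 the same quantities were 0.36 and 0.20 against ST14, and 0.58 and 0.36 against PRSS8. These pairs were chosen with their values known and carry no test. MST1R, the receptor of macrophage-stimulating protein, had RBM35A differences of −0.17 and −0.27. MET, the receptor of hepatocyte growth factor, read 7.10 and 7.01 in total RNA and was under 5 in polysomal RNA, as were its 2 other probe sets.

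SLPI is a small secreted inhibitor of neutrophil elastase made by mucosal epithelia. Total RNA gave 6.05 in RBM35A- and 6.28 in RBM35A+ cells, and polysomal RNA gave 7.12 and 7.74. RBM35A+ cells were higher in both fractions, and both polysomal arrays were higher than both total RNA arrays. The RBM35A difference was 0.62 in polysomal RNA, which is 1.54-fold and 3.20 times the SD of 1 probe set, and 0.23 in total RNA, which is 1.18-fold and 1.24 times that SD. Of the 3588 genes, 17 had a higher polysomal difference than SLPI. The polysomal difference exceeded the total RNA difference by 0.39, or 1.63 times the SD for this quantity. SLPI has 1 probe set on the array, so no second reading of the gene was available.

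SERPINA1, alpha-1-antitrypsin, is the main circulating inhibitor of neutrophil elastase and is also made by intestinal epithelium. Without and with RBM35A, total RNA gave 6.25 and 6.24, a difference of −0.01. In polysomal RNA it read 4.69 and 4.82, both under the floor, so the RBM35A difference there is unknown at this floor. SLPI and SERPINA1, which inhibit the same protease, thus lay on opposite sides of their total RNA values in the polysomal fraction. The elastase gene ELANE itself lay under 5 on all arrays.

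CST3, cystatin C, is a secreted inhibitor of cysteine cathepsins. Total RNA gave 7.23 without and 7.41 with RBM35A, and both polysomal arrays gave 5.76. The polysomal arrays did not differ at 2 decimals, and both lay well under the total RNA arrays. The RBM35A difference was 0.18 in total RNA, under the SD of 1 probe set, and 0.00 in polysomal RNA. Among cysteine proteases, CTSH differed between the states by −0.06 in total RNA and by −0.15 in polysomal RNA, CTSC by 0.15 and 0.42, and LGMN, or legumain, by 0.30 and 0.00. CTSC in polysomal RNA and LGMN in total RNA lay beyond the SD of 1 probe set. The aspartic protease CTSD had −0.06 and 0.01. CTSB, CTSL and CTSS, which cystatin C inhibits, were under 5 on all arrays.

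TIMP1, a secreted inhibitor of matrix metalloproteinases, was the one member whose total RNA was lower in RBM35A+ cells by more than the SD of 1 probe set. Its levels were 10.81 and 10.57 in total RNA, a difference of −0.25 (1.32 times that SD), and 10.44 and 10.47 in polysomal RNA, a difference of 0.03. The total RNA array of RBM35A- cells was the highest of the 4. Its single probe set has an ID that marks sequence shared with other transcripts. TIMP2, which both inhibits MMP2 and helps to activate it, read 2.62 to 2.88 at 1 probe set and 2.22 on all arrays at the other, which is the lowest signal the arrays hold. Of the 14 matrix metalloproteinases listed for this comparison, all on the array, only MMP15 reached 5. MMP15 had RBM35A differences of 0.39 and 0.03, at a probe set that read 6.47 and 6.50 in polysomal RNA. Another probe set had 0.09 in total RNA and read 3.80 and 3.82, under the floor, in polysomal RNA. Both have shared-sequence IDs. Matrix metalloproteinases outside that list were not examined.

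PLAU, the urokinase plasminogen activator, read 2.46 and 2.31 in total RNA and 2.64 and 2.63 in polysomal RNA. All 4 values lay below the median of all probe sets on their array, which was 2.87 in total and 2.93 in polysomal RNA. PLAT, the tissue plasminogen activator, and PLG, plasminogen, were under 5 as well. Of the urokinase system's member genes, only the receptor was measured. PLAUR, anchored at the cell surface by a glycolipid, read 5.62 and 5.80 in total RNA and 5.49 and 5.56 in polysomal RNA, with differences of 0.17 and 0.06. Its second probe set, with a shared-sequence ID, read 5.13 on both total RNA arrays and 4.76 and 4.87 in polysomal RNA. Both probe sets were near the floor, and neither differed between the states by as much as the SD of 1 probe set.

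**Figure D2:**
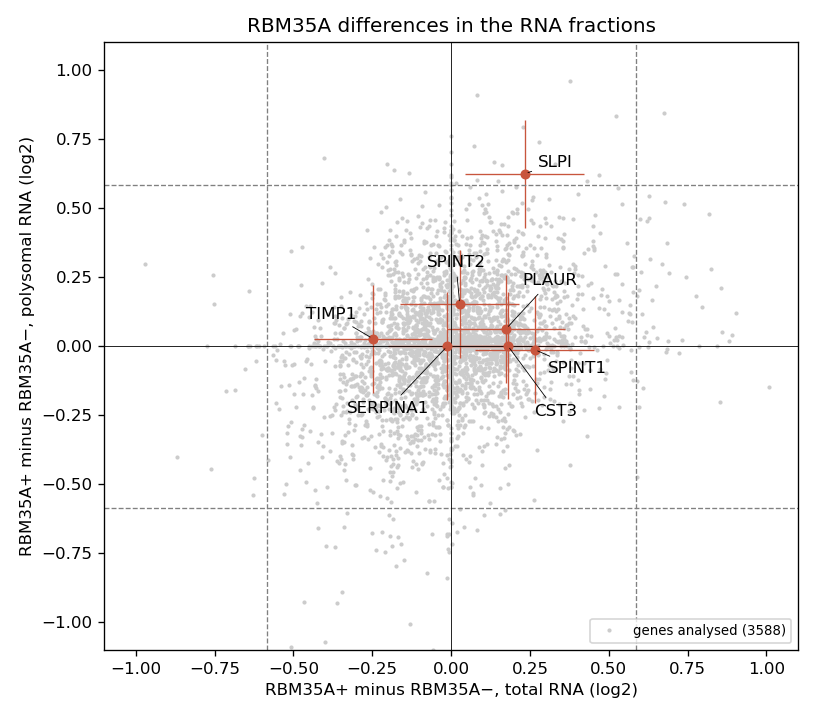
RBM35A+ minus RBM35A- difference (log2) in total RNA (x axis) and in polysomal RNA (y axis) for the genes analysed (grey; 6 lie outside the axes) and the 7 analysed members (red, bars of 1 SD of a single probe set); dashed lines mark 1.5-fold. SLPI is the 1 member past a dashed line, at 0.62 in polysomal RNA, and SERPINA1 is drawn at 0 there because both polysomal values were floored.

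Counted at 1.5-fold in total RNA, 0 of the 7 analysed members were higher and 0 were lower in RBM35A+ cells, where 1.42% and 0.613% of all 3588 genes were. In polysomal RNA 1 member of 6 measured, SLPI, was higher and 0 were lower, against 0.725% and 1.23% of all genes, floored pairs included. The difference between the polysomal and total RNA differences passed 1.5-fold for 0 members in either direction, against 1.31% of all genes upward and 2.12% downward. The median RBM35A difference of the members was 0.17 in total RNA (5 above 0, 2 below) and 0.05 in polysomal RNA over the 6 members measured there, without SERPINA1 (5 above 0, 1 below), beside medians of 0.00 and 0.01 over all genes. In total RNA 4 of the 7 lay within 1 SD of a single probe set, and in polysomal RNA 5 of the 6 did, while 67.4% and 69.8% of all genes did, floored pairs included.

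Beside the polysomal values stand the control probe sets at the ends of abundant transcripts. In polysomal RNA the 5′ probe sets of beta-actin and GAPDH were lower in RBM35A+ cells, with differences of −0.86 and −0.79, and the 3′ ones had −0.02 and −0.13. The probe sets in the middle of the transcripts had −0.44 and −0.33. In total RNA the 5′ and 3′ probe sets of both differed by at most 0.16 in size, the middle one of beta-actin by 0.27 and that of GAPDH by −0.11. On those polysomal arrays SLPI had a difference of 0.62, and any relation of this value to the 5′ signal was not tested. Where the members' probe sets lie along their transcripts was not used here, and the part of 5′ signal in these results was not tested.

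A cut at 2-fold on the polysomal minus total difference, with 1 array on each side, sorted the members into 3 kinds. CST3 was lower in polysomal RNA, at −1.47 in RBM35A- and −1.64 in RBM35A+ cells (2.76-fold and 3.12-fold, 2.10 and 2.09 times the SD of 1 probe set). SERPINA1 was lower by at least 2.37-fold and 2.35-fold (1.79 and 1.58 times the SD), bounds set by the floor. With a floor of 6 its values were −0.25 and −0.24, inside 2-fold. SLPI was higher by 1.07 and 1.46 (2.10-fold and 2.76-fold, 1.54 and 1.87 times the SD). The other 4 stayed within 2-fold: SPINT1 at −0.27 and −0.54, TIMP1 at −0.37 and −0.10, PLAUR at −0.13 and −0.24, and SPINT2 at 0.06 and 0.18. Each of these 4 lay within 1 SD of a single probe set in both states.

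At 2-fold in both states 1 member was higher and 2 were lower in polysomal RNA, against 11.6% and 6.13% of all genes. The members' medians were −0.27 in RBM35A- and −0.24 in RBM35A+ cells, beside 0.09 over all genes in both. The fractions had been normalized apart, and with each array centred on the median of its analysed genes SLPI lay at 0.88 and 1.26 and no longer passed 2-fold in both states. That centring moved the median of all genes by −0.19 and −0.21, and the split of all genes past 2-fold from 415 higher and 220 lower to 313 and 327. SPINT2 changed sign under it, to −0.13 and −0.03. In the same comparison of fractions the 5′ probe set of beta-actin differed by −4.51 and −5.32 and that of GAPDH by −1.83 and −2.59, while their 3′ probe sets differed by −0.30 and −0.27, and by −0.16 and −0.14; the part of this 5′ difference in the members' values was not tested.

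**Figure D3:**
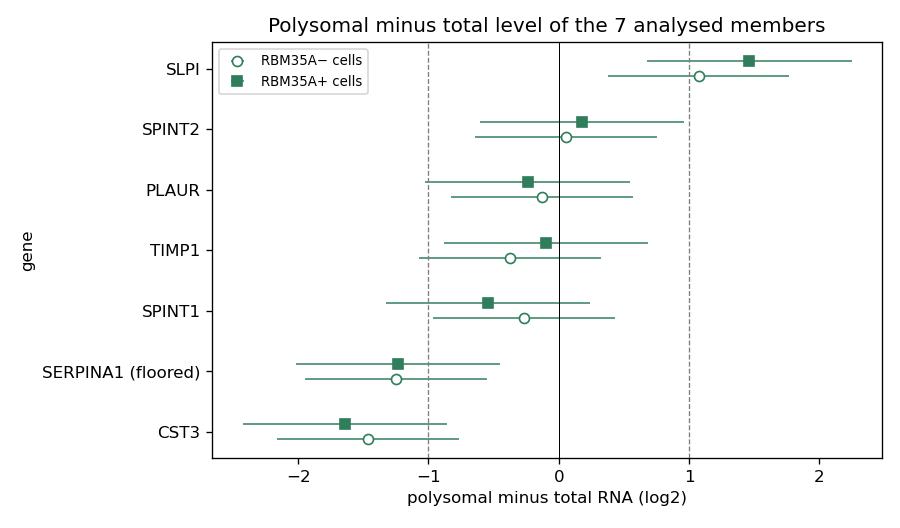
Polysomal minus total log2 level (x axis) of the 7 analysed members (y axis) in RBM35A- (open circles) and RBM35A+ cells (filled squares), with bars of 1 SD of a single probe set and dashed lines at 2-fold. CST3 and SERPINA1 lie left of −1 and SLPI right of 1 in both states; SERPINA1 values are bounds because polysomal levels were floored.

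An additive model of RBM35A state and RNA fraction over all 4 arrays, fitted with limma, left 1 residual degree of freedom. The residual holds how far a difference varied between the levels of the other factor. That variation is pooled by limma over all genes, with 5.33 prior degrees of freedom. A small p here says that a difference was large beside this mostly pooled error, and nothing about other cultures. For state, 0 members and 0 genes (0% higher, 0% lower) passed an adjusted p of 0.05 with limma, and 369 genes had an unadjusted p under 0.05. SLPI had the smallest state p of the members, with a mean difference of 0.43 (SE 0.127), an unadjusted p of 0.0137 and an adjusted p of 0.408 in limma, higher in 2 of 2 fractions. For fraction, 4 members passed: CST3 (−1.55, SE 0.106, adjusted p = 6.42e-05 with limma), SERPINA1 (−1.24, with floored values, adjusted p = 0.000109 with limma), SLPI (1.27, SE 0.127, adjusted p = 0.00024 with limma) and SPINT1 (−0.41, SE 0.114, adjusted p = 0.0196 with limma). So did 38.5% of all genes upward and 27.4% downward, and a call for fraction was thus common on these arrays. With centred arrays the members called became 1 higher and 5 lower, TIMP1 and PLAUR among them, and the split of all genes called went from 1383 higher and 984 lower to 1031 and 1339. With no floor SLPI and SPINT1 lost their calls (adjusted p = 0.0858 and 0.181 with limma), and with a floor of 6 SERPINA1 did (adjusted p = 0.0701 with limma). The differences of SLPI and SPINT1 were the same with no floor, while the prior degrees of freedom were 0.42. Over the 6 alternatives the adjusted p from limma ranged from 3.72e-05 to 0.0858 for SLPI, from 0.00814 to 0.181 for SPINT1, from 1.6e-05 to 0.0701 for SERPINA1 and from 6.46e-06 to 0.0418 for CST3.

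Most of the variation of the members over the 4 arrays lay between fractions in the values as deposited and floored. Shares over all genes were not computed, and limma called 38.5% of all genes higher and 27.4% lower by fraction. The fractions had been normalized apart, and these shares were not recomputed with centred arrays, where the fraction differences of SPINT2 changed sign. The share of the sum of squares between fractions was 99.3% for CST3, 87.9% for SLPI, 82.4% for SPINT1, 66.0% for PLAUR, 64.2% for TIMP1 and 53.6% for SPINT2. For SERPINA1 that share was 99.995%, with both polysomal values raised to the floor. RBM35A state took 10.0% in SLPI and 31.2% in SPINT2, whose whole range was small.

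SLPI and CST3 had the widest ranges of the analysed members at 1.70 and 1.64. The 3 genes whose 4 mean-centred values lay nearest to SLPI, among 3003 other genes at or over 5 on all 4 arrays, were the checkpoint kinase ATR (distance 0.125, log2), the metallothionein MT1B (0.193), whose probes can read related metallothioneins, and the actin nucleator DIAPH1 (0.196). For ATR the RBM35A difference was 0.19 in total RNA and 0.49 in polysomal RNA. Nearest to CST3 were the serine synthesis enzyme PHGDH (0.0695), the actin bundler PLS1 (0.0734) and the zinc transporter SLC39A7 (0.0955). PHGDH differed between polysomal and total RNA by −1.47 in RBM35A- and −1.66 in RBM35A+ cells. With 4 arrays such likeness is only a description.

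Around the members, 5 lists of other extracellular proteolysis genes held 110 genes, of which 97 were on the array and 33 were analysed. In total RNA 31 of the 33 had a value over the floor, and all 31 of these lay within 1.5-fold between the states. In polysomal RNA 28 of 29 such genes did. Of all 3588 genes 98.0% lay within 1.5-fold in each fraction, floored pairs included. Counted that way, all 33 list genes lay within 1.5-fold in total RNA and 32 in polysomal RNA, near the general share. The exception was basigin (BSG), a membrane glycoprotein known to induce metalloproteinases, at 12.81 and 12.61 in total RNA and 11.62 and 10.94 in polysomal RNA, with RBM35A differences of −0.19 and −0.69. In polysomal RNA 1.23% of all genes were 1.5-fold lower. The 5′ probe sets of beta-actin and GAPDH had −0.86 and −0.79 on those arrays, and the part of 5′ signal in the BSG value was not tested. The median was −0.06 over the 31 genes in total RNA and 0.00 over the 29 in polysomal RNA.

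Among surface serine proteases and the hepatocyte growth factor system, 9 of 18 genes on the array were analysed, and 8 of these were below 0 in total RNA (median −0.17, lowest PRSS8 at −0.55), though 0 passed 1.5-fold. Of all 3588 genes, 43.3% lay under −0.01 there. Within the 8, MST1R, MET, PRSS3 and KLK10 were smaller in size than the SD of 1 probe set, 0.188. The other probe sets of MET had −0.12 and 0.07 in total RNA. Trypsin 3 (PRSS3), read by probes that can meet related trypsinogens, had differences of −0.06 and 0.15. In the plasminogen system 4 of 11 genes were analysed. The protease nexin SERPINE2 had differences of 0.03 and 0.16, the plasminogen-binding enolase ENO1 −0.11 and 0.25, and the annexin partner S100A10 0.12 and 0.45. ANXA2, another plasminogen-binding protein, read 8.12 and 7.98 in total RNA and was under 5 in polysomal RNA. Between the fractions the 5′ probe set of beta-actin differed by −4.51 and −5.32, and the 3′ one by −0.30 and −0.27. The part of 5′ signal in the low polysomal values of ANXA2, MET and CTSC was not tested.

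Of the 26 listed metalloproteinase genes on the array 6 were analysed, 0 higher and 1 lower at 1.5-fold, BSG. The surface protease ADAM15 had 0.37 in total and −0.11 in polysomal RNA, and ADAM9 had 0.52 and 0.02. ADAM9 was read near the floor, at 5.56 and 6.08 in total RNA and 5.47 and 5.49 in polysomal RNA. Its 1 measured probe set has an ID treated here as shared-sequence. Of 18 cathepsin and cystatin genes 7 were analysed and 0 passed 1.5-fold; the intracellular cystatin CSTB had 0.09 in both fractions, and CTSC was lower in polysomal than in total RNA, at −2.73 in RBM35A+ cells. Of 24 other serine protease inhibitors and neutrophil proteases 7 were analysed and 0 passed 1.5-fold. SERPINB1, an intracellular elastase inhibitor, had −0.09 and −0.02, and SERPINH1, a collagen chaperone of the serpin family, 0.28 and −0.03, with −0.05 and 0.02 at its other probe set. At 2-fold in both states, 2 of the 33 list genes were higher and 5 lower in polysomal than in total RNA, beside 11.6% and 6.13% of all genes.

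**Figure D4:**
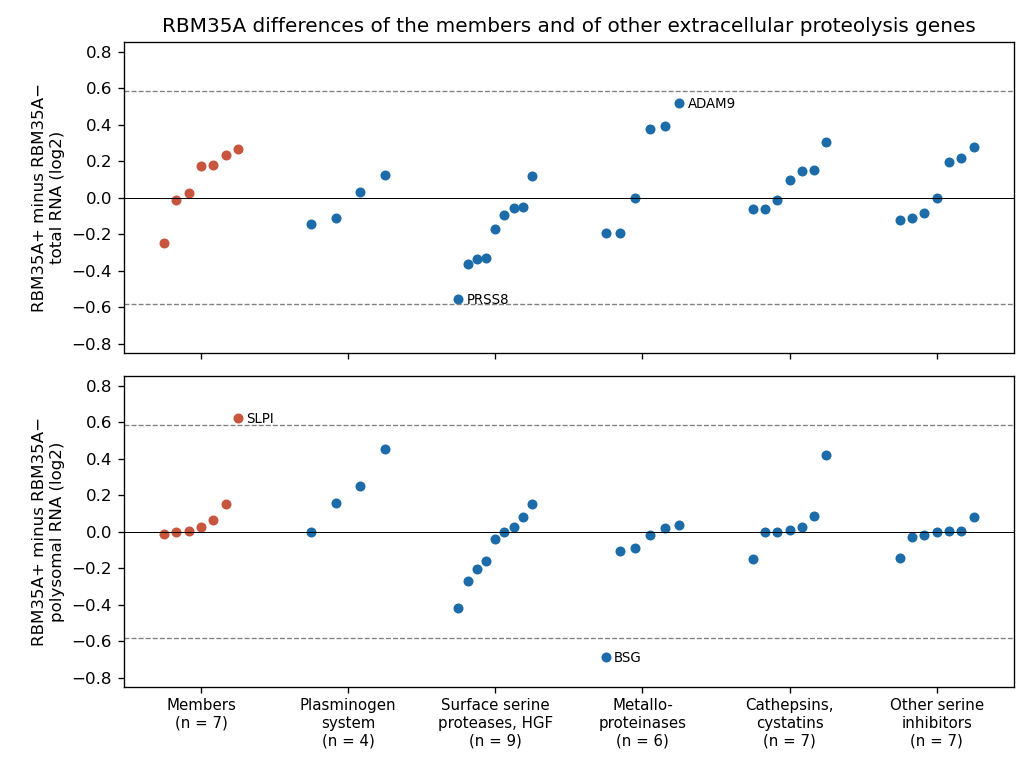
RBM35A+ minus RBM35A- difference (log2, y axis) in total RNA (upper panel) and polysomal RNA (lower panel) for the 7 analysed members (red) and the 33 analysed genes of the 5 lists (blue, x axis), each point 1 gene, floored pairs at 0, with dashed lines at 1.5-fold and names beside points at 0.5 or more in size. SLPI at 0.62 and BSG at −0.69 in polysomal RNA are the 2 points past the dashed lines.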

How the data were processed

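Gene expression was measured on 4 Affymetrix HG-U95Av2 arrays, 1 per RBM35A state and RNA fraction, from 10 µg of RNA each per the labels' protocols. The deposited values are log2, and GCRMA is the tool that the submitters' processing notes name for them; the version and any genome build are not given in the sources used here. Sorted values agreed to within 6.61e-06 inside each fraction and differed by up to 0.227 between fractions, so each pair of arrays was quantile normalized apart. A probe set was used when the array annotation gave it 1 symbol, updated by gene ID in a RefSeq table (GRCh38.p14, names only; 10934 of 10943 matched). The probe set with the highest mean represented a gene, and values under 5 were raised to 5. RBM35A differences were counted at 1.5-fold and fraction differences at 2-fold. An additive model was fitted across all genes with limma 3.58.1 in R 4.3.3 with Benjamini-Hochberg adjustment, and its script was tested on simulated data. The number of arrays limits the precision. All 9 members were named, list genes when past 1.5-fold in either fraction or among the 2 with the highest signal, with others added after their values were seen, and genes of like pattern for the 2 members of widest range. The members and lists were chosen with earlier results of these data known. Floors of 4, 6 and none, the mean of probe sets, exclusion of shared-sequence IDs and centred arrays were tried.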

Additional observations from a re-analysis of the deposited data

Results flagged for a closer look

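Of the members, SPINT1 and TIMP1 had RBM35A differences of opposite sign in the RNA fractions, with 1 array on each side, so the difference was not tested. For SPINT1 the polysomal difference was lower than the total RNA difference by 0.28 (a value of −0.28, from 0.26 in total and −0.01 in polysomal RNA). For TIMP1 it was higher by 0.28 (from −0.25 to 0.03). In both genes the polysomal value was smaller than the SD of 1 probe set, and −0.28 and 0.28 compare with an SD of 0.239 for this quantity.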

How the results depend on the processing

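Of 200 member values recomputed under the 6 alternatives, 198 moved by less than the SD of 1 probe set and 0 called values changed sign. Many could not do otherwise: floors and the mean of probe sets leave a member with 1 probe set over 6 as it was. Centring shifted polysomal minus total values by −0.19 and −0.21, well inside their SDs of 0.697 and 0.784. The count of 198 therefore says little about stability. With a floor of 6 the polysomal minus total difference of SERPINA1 was −0.25 and −0.24, as the floor itself sets it, and 1 member in place of 2 was lower by 2-fold in both states. With centred arrays 0 members in place of 1 were higher by 2-fold in both states, and limma called 5 in place of 3 members lower by fraction. With no floor limma called 0 in place of 1 member higher by fraction (SLPI lost) and 2 in place of 3 lower (SPINT1 lost). The fraction differences of SLPI and SPINT1 were unchanged there, at 1.27 and −0.41. The prior degrees of freedom were 0.42 in place of 5.33, with 8225 genes fitted in place of 3588. The part of each gene's own signal in the lost calls was not tested. With centred arrays the polysomal RBM35A difference of SLPI was 0.60, still past 1.5-fold. The other alternatives could not change its 0.62, because its 1 probe set has no shared-sequence ID and read over 6 on all arrays. Over all genes, with no floor 80 in place of 51 were 1.5-fold higher and 57 in place of 22 lower in total RNA, and for the difference of differences 93 in place of 47 were higher and 118 in place of 76 lower, with more genes counted. Genes lower in total RNA numbered 43 with a floor of 4 and 12 with a floor of 6. Signal near background limits PLAU, TIMP2, PLAUR and SERPINA1, and 1 array per group limits every difference.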
